A study of Mus musculus with 23 samples.

Results

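The genes described here help to set which fuel a muscle fiber burns, in the quadriceps of mice with a slow-release corticosterone or vehicle pellet. They are the pyruvate dehydrogenase kinases Pdk1, Pdk2, Pdk3 and Pdk4, the phosphatase Pdp1, the mitochondrial carriers Ucp2 and Ucp3, lipoprotein lipase (Lpl), its inhibitor Angptl4, and Txnip. The 10 genes were taken by symbol from the 55573 Ensembl genes in the table of counts, and each symbol matched 1 gene. All 10 passed the filter on low counts, which kept 13049 genes for testing.

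Bulk RNA from the quadriceps (a thigh muscle) of 23 C57BL/6J mice aged 8 to 10 weeks was sequenced. The groups were 6 females with vehicle (Female_VEH), 5 females with corticosterone (Female_CORT), 6 males with vehicle (Male_VEH) and 6 males with corticosterone (Male_CORT), each sample being a separate mouse. Corticosterone is the main glucocorticoid of mice. Its pellet held 50 mg of corticosterone and 50 mg of cholesterol, the vehicle pellet held 100 mg of cholesterol, and both stayed under the skin for 14 days, with a 5-hour fast before the end. Mice are named by sex and number, so that F2 is female 2. The labels name no sequencing batch, and a batch that differed between the sexes cannot be told apart from sex.

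Pyruvate dehydrogenase turns pyruvate from glucose into acetyl-CoA inside mitochondria. The PDK enzymes phosphorylate this complex and switch it off, which spares glucose and leaves fatty acids as the fuel, and PDP1 removes the phosphate and switches the complex on again. LPL frees fatty acids from the triglyceride of circulating lipoproteins, and ANGPTL4 inhibits LPL. UCP3 is a mitochondrial carrier typical of skeletal muscle, whereas UCP2 is widespread and is also found in immune cells. TXNIP binds thioredoxin and restrains glucose uptake. PDK4 and ANGPTL4 are known as products of genes induced by fasting, fatty acids and glucocorticoids.

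Promoter windows of 7 of the 10 genes were found in the RefSeq promoter table (GRCm38.p6), and Pdp1, Angptl4 and Lpl were not matched. A window runs from 250 bases before to 50 bases after a start. Only the bases before annotated exons are printed, for 4 genes: the kinase gene with the highest level (Pdk4), the gene called in both sexes (Txnip), and 2 genes whose windows hold a searched motif and whose levels are described later (Ucp3 and Pdk2). Capitals mark the motif. The stretches are chr6:5496310-5496528 on the minus strand, chr3:96557707-96557956 on the plus strand, chr7:100472741-100472989 on the plus strand and chr11:95041372-95041621 on the minus strand, each written 5′ to 3′ on the strand of its gene.
Pdk4: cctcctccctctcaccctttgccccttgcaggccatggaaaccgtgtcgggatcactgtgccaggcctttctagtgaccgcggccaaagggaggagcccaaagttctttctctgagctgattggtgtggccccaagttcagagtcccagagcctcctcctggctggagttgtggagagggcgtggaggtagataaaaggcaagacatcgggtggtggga
Txnip: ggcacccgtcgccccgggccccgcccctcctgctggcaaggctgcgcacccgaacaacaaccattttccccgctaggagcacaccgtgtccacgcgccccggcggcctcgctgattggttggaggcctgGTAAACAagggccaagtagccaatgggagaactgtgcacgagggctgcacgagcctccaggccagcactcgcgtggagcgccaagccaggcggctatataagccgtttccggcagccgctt
Ucp3: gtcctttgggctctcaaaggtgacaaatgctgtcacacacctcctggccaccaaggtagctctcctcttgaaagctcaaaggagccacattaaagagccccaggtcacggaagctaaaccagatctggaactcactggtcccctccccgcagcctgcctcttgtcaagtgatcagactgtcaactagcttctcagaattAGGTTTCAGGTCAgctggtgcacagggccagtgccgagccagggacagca
Pdk2: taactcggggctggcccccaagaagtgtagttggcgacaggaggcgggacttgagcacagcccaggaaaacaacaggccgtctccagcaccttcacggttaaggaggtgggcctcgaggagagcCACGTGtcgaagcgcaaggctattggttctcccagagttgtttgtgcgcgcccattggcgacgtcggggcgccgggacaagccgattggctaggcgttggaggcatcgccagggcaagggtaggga

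A total of 5 motifs was searched on both strands of 32851 windows. The FoxO motif TGTTTAC was present in the Txnip window, on the strand opposite the gene (GTAAACA, beginning 121 bases before the start), and in 3.65% of all windows. The direct repeat bound by PPAR with RXR, 2 copies of AGGTCA with 1 base between them, was matched in the Ucp3 window with 2 mismatches, 51 bases before the start, and in 3.86% of all windows at up to 2 mismatches. The E-box CACGTG lay 126 bases before the start of Pdk2 and was in 7.15% of windows. The glucocorticoid response element, AGAACA and TGTTCT with 3 bases between them, at up to 2 mismatches (1.84% of windows) was in no window of these genes, and TGTTCT alone (19% of windows, and a part of the full element) was found only in a second Pdk1 window, at 153 and 138 bases before the start. No match to these letters lay in the Pdk4 window. These are matches of letters in a short window and not measured binding.

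All 23 libraries held the muscle fiber markers Acta1, Ckm, Tnnt3, Myh4, Mb and Mylpf, with summed CPM of 66100 to 192000. Some libraries stood apart. The summed CPM of 6 hepatocyte markers was 2254 in F10, 2243 in M8, 1350 in M9, 1323 in M12 and 992 in F6. It was at most 280 in every other mouse, with no such marker at 0 in any mouse. Without F10 and M8 the calls of Ucp2 in females (log2FC 0.90) and of Lpl between the corticosterone groups (-1.23) were lost. Over all genes, this fit called 1167 in females in place of 1748, and 1382 between the corticosterone groups in place of 3043. Each call was also lost on leaving out F10 or F6 alone, or some single mice low in hepatocyte markers, as given below. F10 was also high in adipocyte markers (summed CPM 3615). The part of hepatocyte RNA in the lost calls was not tested. Adipocyte markers are given beside the genes they moved with.

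In GENCODE M21 on GRCm38 (mm10) the 10 genes are all protein-coding. Pdk4 spans chr6:5483351-5496309 on the minus strand, Txnip chr3:96557957-96561883 on the plus strand and Angptl4 chr17:33773750-33781830 on the minus strand. Ucp3 (chr7:100472990-100486432) and Ucp2 (chr7:100493337-100502020) lie next to each other on the plus strand.

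Levels of different genes were compared per exon length, as TPM, which are counts divided by exon length and scaled to the same total in every mouse. Exon length joins every annotated exon of a gene, and a single transcript can be shorter. It was 10478 bases for Lpl, 6989 for Ucp2, 3541 for Angptl4 and 3135 for Ucp3, so the order given here depends on it. By CPM, which ignore length, Lpl had a higher mean than Ucp3 in Female_VEH (494 and 257) and Male_VEH (610 and 284). In the 12 vehicle-treated mice of both sexes, Txnip was the most abundant with a median of 784 TPM (637 to 976), followed by Pdk4 at 686 TPM (317 to 1288) and Pdk2 at 404 TPM (344 to 438). Ucp3 came next at 212 TPM (136 to 302) and Lpl at 118 TPM (58.4 to 235). Lower still lay Pdp1 at 38.5 TPM, Pdk1 at 22.1 TPM, Angptl4 at 14.3 TPM and Ucp2 at 6.49 TPM. Pdk3 was the lowest at 1.03 TPM (0.610 to 3.19), with 11 to 69 counts in a mouse. Neighbours in this order overlapped in range, except that Pdk2 lay above Ucp3 and Ucp2 above Pdk3 in every vehicle-treated mouse.

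Within a gene, levels are given below as CPM, which are counts scaled to the same library size after TMM normalization. A gene was called changed at an adjusted p under 0.01 by the quasi-likelihood test of edgeR, with p-values of all 13049 genes adjusted after Benjamini and Hochberg. Corticosterone raised 1 of the 10 genes in males (Txnip) and 3 in females (Angptl4, Txnip and Ucp2), and lowered none in either sex. Of all genes tested, 26.3% were called in males (13.2% higher and 13.1% lower) and 13.4% in females (7.40% higher and 6.0% lower). The median log2 fold change (log2FC) of the 10 genes was -0.10 in males and 0.64 in females, beside -0.02 and 0.04 over all genes tested. A further 4 genes in males and 3 in females had an adjusted p between 0.01 and 0.05 in edgeR's test.

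**Figure D1:**
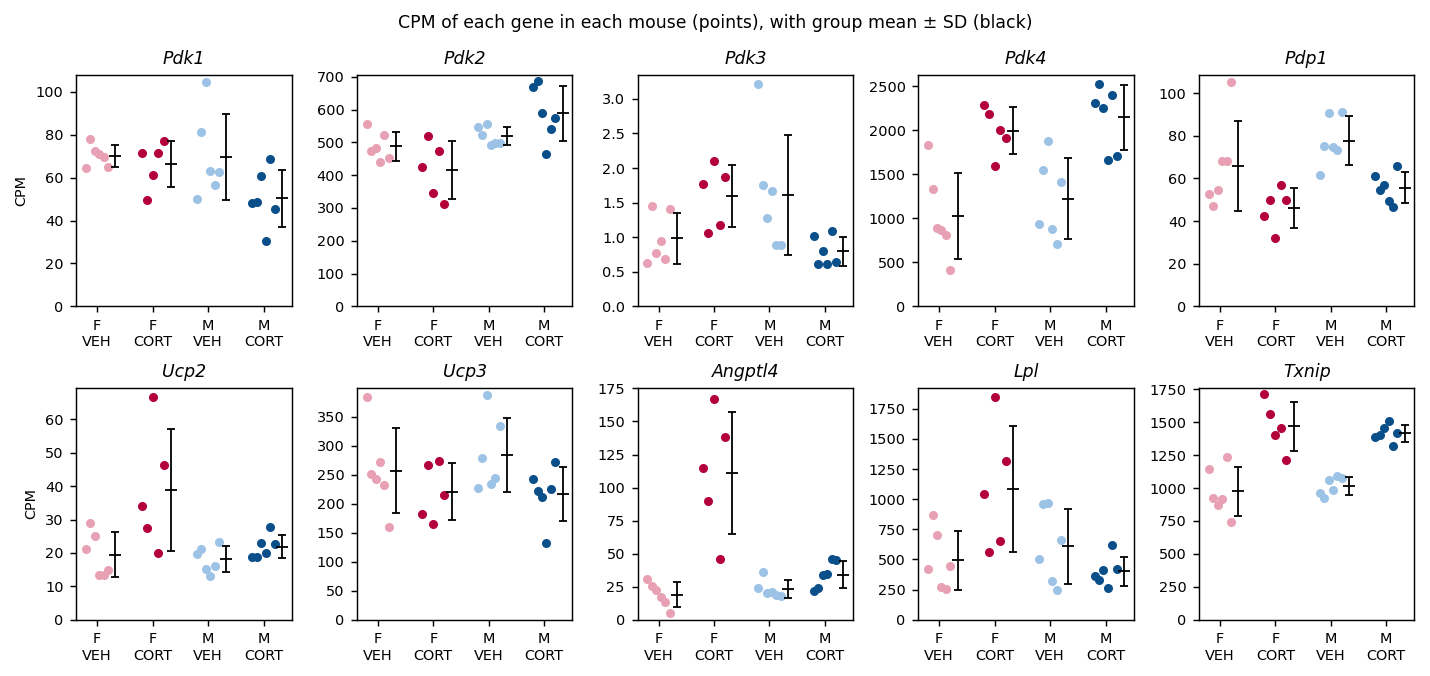
CPM (vertical axes, linear, from 0) of the 10 genes in each mouse of the 4 groups, with F for female, M for male, VEH for vehicle and CORT for corticosterone. Points are mice and black bars the group mean ± SD; Angptl4 in females and Txnip in males are the genes whose treated mice all lie above the vehicle-treated mice of that sex.

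**Figure D2:**
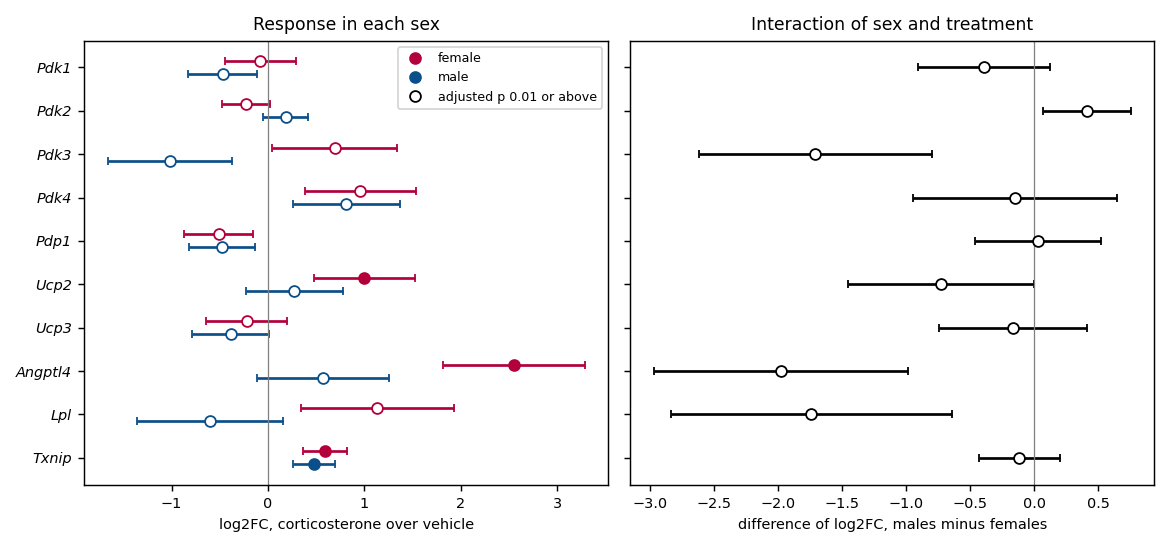
Left, log2FC of corticosterone over vehicle for each gene in females (red) and males (blue), with 95% confidence intervals and filled points for an adjusted p under 0.01. Right, the male log2FC minus the female log2FC with its 95% interval; no gene passed the threshold there, and Angptl4, Lpl and Pdk3 had the largest differences in size.

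Pdk4, the kinase gene known to respond to fasting and glucocorticoids, stood at 1591 CPM or more in every treated mouse. In males its level ran from 703 to 1871 CPM with vehicle (median 1172) and from 1666 to 2525 CPM with corticosterone (median 2283). All 6 treated males lay above the vehicle mean, yet the ranges overlapped because M5, with vehicle, reached 1871 CPM. The log2FC was 0.81 ± 0.27 (SE) with an adjusted p of 0.0196 in edgeR's quasi-likelihood test, so Pdk4 was not called in males.

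In females, Pdk4 ran from 416 to 1833 CPM with vehicle (median 880), and the 5 treated females held 2282 (F2), 2187 (F4), 1591 (F6), 2000 (F8) and 1907 CPM (F10). All 5 lay above the vehicle mean, and only F1, with vehicle, reached into their range. The log2FC was 0.96 ± 0.28 (SE), with an adjusted p of 0.0145 in edgeR's test. Without F1 the female log2FC was 1.21 and Pdk4 was called. DESeq2 called Pdk4 in both sexes and limma-voom in males. The male minus female difference was -0.15, with a 95% interval of -0.95 to 0.65.

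Pdk2, the constitutive kinase of muscle, was not called in either sex, with a log2FC of 0.18 ± 0.11 (SE, adjusted p 0.209 in edgeR's test) in males and -0.23 ± 0.12 (SE, adjusted p 0.156 in edgeR's test) in females. Treated males held 465 to 688 CPM (median 582), and treated females held 425 (F2), 521 (F4), 346 (F6), 475 (F8) and 311 CPM (F10). All 6 treated males lay above the mean of the treated females, although the groups overlapped. Between the corticosterone groups Pdk2 was higher in males, by 0.50 ± 0.12 (SE) on the log2 scale with an adjusted p of 0.00275 in edgeR's test. Leaving out F2, F6 and F10, chosen for their adipocyte markers, left 2 treated females. The difference was then 0.26, with an adjusted p of 0.224 in edgeR's test. The mice left out held the least Pdk2 of the treated females, so that a smaller difference followed from the choice of mice. Over all genes, this fit called 213 between the corticosterone groups in place of 3043. With all mice, edgeR called 0 of 6 muscle fiber markers between the corticosterone groups, beside 23.3% of all genes tested. Of these markers, 3 had an unadjusted p under 0.05 in edgeR's test, and DESeq2 called 2 and limma-voom 1. Their summed CPM ran from 66100 to 151000 in treated females and from 110000 to 192000 in treated males. It was lowest in F10 (66103) and F6 (85531), which held the least Pdk2, and highest in M4 (192433) and M2 (189593), which held the most. The part of muscle fiber RNA in the Pdk2 difference was not tested.

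Pdk1, a kinase gene induced by hypoxia, was not called. Its log2FC was -0.47 ± 0.17 (SE, adjusted p 0.0329 in edgeR's test) in males, where all 6 treated mice lay below the vehicle mean, and -0.08 ± 0.18 (SE, adjusted p 0.781 in edgeR's test) in females. Pdk3, the scarcest of the kinase genes, had log2FC values of opposite sign in the sexes and was not called. In males it ran from 0.891 to 3.22 CPM with vehicle and from 0.607 to 1.09 CPM with corticosterone, and in females from 0.633 to 1.46 CPM with vehicle and from 1.06 to 2.10 CPM with corticosterone. Its log2FC was -1.02 ± 0.31 (SE, adjusted p 0.0119 in edgeR's test) in males and 0.69 ± 0.31 (SE, adjusted p 0.105 in edgeR's test) in females. All 6 treated males lay below their vehicle mean and all 5 treated females above theirs.

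Per length, Pdk4 made up most of the kinase transcripts in nearly every mouse. Its share of the summed TPM of the 4 kinase genes was 61.4% ± 10.6 (SD, n = 6) in Female_VEH, 80.2% ± 2.26 (SD, n = 5) in Female_CORT, 65.1% ± 7.82 (SD, n = 6) in Male_VEH and 75.9% ± 2.29 (SD, n = 6) in Male_CORT. The treated females (78.1% to 83.3%) all lay above the vehicle-treated females (43.9% to 73.9%), whereas in males the ranges of 72.1% to 79.1% and 54.9% to 73.8% overlapped. The summed TPM of the 4 genes was 1187 ± 380 (SD, n = 6) in Female_VEH and 1967 ± 182 (SD, n = 5) in Female_CORT, and 1284 ± 297 (SD, n = 6) in Male_VEH and 1996 ± 155 (SD, n = 6) in Male_CORT. These shares are given as a description, with no test.

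**Figure D3:**
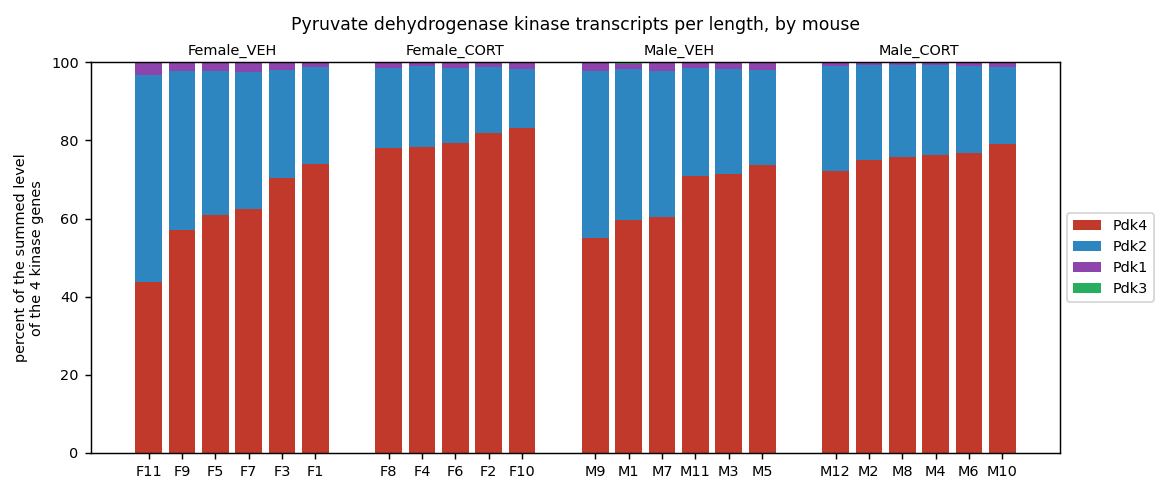
Percent of the summed TPM of the 4 kinase genes (vertical axis) held by Pdk4, Pdk2, Pdk1 and Pdk3 in each mouse, ordered by the Pdk4 percent within each group. The vehicle-treated mice spread from 43.9% to 73.9% Pdk4 and the treated mice from 72.1% to 83.3%; Pdk3 is too scarce to be seen.

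Pdp1, which counters the kinases, had a negative log2FC in both sexes and was not called. In males it ran from 61.4 to 91.1 CPM with vehicle and from 46.7 to 65.8 CPM with corticosterone, a log2FC of -0.48 ± 0.16 (SE, adjusted p 0.024 in edgeR's test). In females it ran from 47.0 to 105 CPM with vehicle and from 32.1 to 57.1 CPM with corticosterone, a log2FC of -0.51 ± 0.17 (SE, adjusted p 0.0332 in edgeR's test). Every treated mouse lay below the vehicle mean of its sex. The difference between the sexes was 0.03, with a 95% interval of -0.46 to 0.53.

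Among 10 listed genes of the pyruvate dehydrogenase complex and of pyruvate entry, 4 fell in males and none rose. These were Dlat, the acetyltransferase subunit (log2FC -0.61), Pdhx, which anchors another subunit (-0.46), Mpc1 of the mitochondrial pyruvate carrier (-0.46) and Bckdk, the related kinase of branched-chain keto acid dehydrogenase (-0.41), the last 2 being named after their values were seen. In females edgeR called 0 of the 10, with 1 at an unadjusted p under 0.05, and DESeq2 and limma-voom called 1 each. Over all genes tested, edgeR called 26.3% in males and 13.4% in females.

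Angptl4 had the largest change of the 10 genes, in females. It ran from 4.75 to 30.8 CPM with vehicle (median 19.8), and the 5 treated females held 115 (F2), 89.7 (F4), 167 (F6), 45.9 (F8) and 138 CPM (F10). Every treated female lay above every vehicle-treated female. Angptl4 rose 5.85-fold, a log2FC of 2.55 ± 0.35 (SE) with an adjusted p of 4.47e-05 in edgeR's quasi-likelihood test. It was the only one of the 10 genes whose female groups did not overlap upward, which 3.38% of all genes tested did. None of the 10 lay wholly below vehicle in a sex, as 4.34% of genes did in females and 11.1% in males.

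In males, Angptl4 ran from 18.1 to 35.9 CPM with vehicle (median 20.7) and from 21.8 to 45.9 CPM with corticosterone (median 34.1). The groups overlapped through M1 and M3, with vehicle, at 24.1 and 35.9 CPM, and the log2FC was 0.57 ± 0.33 (SE, adjusted p 0.176 in edgeR's test). Between the corticosterone groups Angptl4 was lower in males by a log2FC of -1.70 ± 0.35 (SE, adjusted p 0.000893 in edgeR's test), and only M10 reached the range of the treated females.

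Lpl was not called in either sex but differed between the corticosterone groups. It ran from 251 to 868 CPM in vehicle-treated females, and the treated females held 1045 (F2), 558 (F4), 1844 (F6), 657 (F8) and 1314 CPM (F10), a log2FC of 1.13 ± 0.38 (SE, adjusted p 0.032 in edgeR's test). F4 and F8 lay within the vehicle range and the other 3 above it. In males Lpl ran from 243 to 968 CPM with vehicle and from 264 to 620 CPM with corticosterone, a log2FC of -0.61 ± 0.37 (SE, adjusted p 0.194 in edgeR's test). Treated males were lower than treated females by a log2FC of -1.44 ± 0.38 (SE, adjusted p 0.0058 in edgeR's test). This call was lost in 7 of the 23 fits that each left out 1 mouse, namely F6, F10, M2, M4, M6, M8 and M12, with log2FC values of -1.14 to -1.46.

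Ucp2 rose in females. It ran from 13.3 to 29.1 CPM with vehicle, and the treated females held 34.1 (F2), 27.4 (F4), 66.8 (F6), 20.1 (F8) and 46.3 CPM (F10). F4 and F8 lay within the vehicle range and the other 3 above it. The log2FC was 1.0 ± 0.25 (SE, adjusted p 0.00605 in edgeR's test), and the call was lost on leaving out any of F1, F2, F6, F7, F9, F10 and F11, with log2FC values of 0.70 to 1.05. In males Ucp2 ran from 13.0 to 23.2 CPM with vehicle and from 18.7 to 27.8 CPM with corticosterone, a log2FC of 0.27 ± 0.24 (SE, adjusted p 0.395 in edgeR's test).

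Adipocyte markers were high in the same treated females. The summed CPM of 8 adipocyte markers (Adipoq, Plin1, Cidec, Cfd, Retn, Lep, Fabp4 and Pck1) was 7641 in F6, 3881 in F2, 3615 in F10, 1226 in F4 and 274 in F8, beside 287 to 2737 in vehicle-treated females and 295 to 1062 in treated males. In females edgeR called 1 of the 8 markers, Lep at a log2FC of 6.79, beside 13.4% of all genes tested. DESeq2 and limma-voom called 2 each, and 7 of the 8 had an unadjusted p under 0.05 in edgeR's test. The median log2FC of the list was 2.25, and Cfd alone was negative, at -0.77 in females. No marker was at 0 in more than 1 mouse. In bulk samples more cells of a type and more RNA per cell cannot be told apart. The part of these cells in the female values of Angptl4, Lpl and Ucp2 was not tested.

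Leaving out F2, F6 and F10, chosen for their adipocyte markers after the data were seen, left 2 treated females and no call among the 10 genes in females or between the corticosterone groups. The female log2FC was then 1.82 for Angptl4 (adjusted p 0.0182 in edgeR's test), 0.62 for Txnip (0.0131), 0.27 for Ucp2 (0.654) and 0.29 for Lpl (0.813). The 3 mice left out also held the most Angptl4, Lpl and Ucp2 of the treated females, so that lower values of these genes followed from the choice of mice. Between the corticosterone groups the log2FC became -0.97 for Angptl4 (adjusted p 0.163 in edgeR's test) and -0.59 for Lpl (0.466). Over all genes, this fit called 129 in females in place of 1748. F8 had an adipocyte marker sum of 274, beside 287 in the lowest vehicle-treated female. Its Angptl4 was 45.9 CPM, above all 6 vehicle-treated females and level with the treated male M10 (45.9 CPM). F8 is a single mouse, and the part of adipocytes in its value was not tested.

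**Figure D4:**
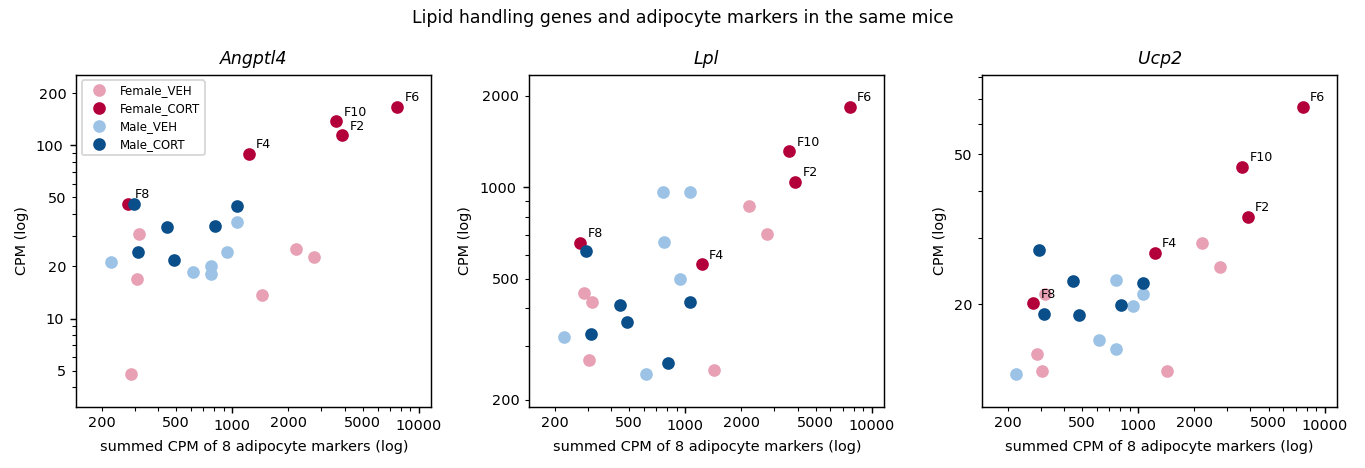
CPM of Angptl4, Lpl and Ucp2 (vertical axes, log scale) against the summed CPM of 8 adipocyte markers (horizontal axes, log scale) in each of the 23 mice, colored by group, with treated females named. F6, F2 and F10 lie at the right with 3615 or more. F8 lies at the left with 274, and its Angptl4 is above that of all vehicle-treated females.

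Macrophage markers also differed between the corticosterone groups, 5 of 6 being lower in males, beside 14% of all genes tested. Their summed CPM was 116 to 350 in treated females, 83.4 to 130 in treated males and 96 to 202 in vehicle-treated females, with no marker at 0 in any mouse. Ucp2 was lower in treated males than in treated females by a log2FC of -0.84 ± 0.25 (SE, adjusted p 0.0126 in edgeR's test), which did not pass the threshold. The part of macrophages in this value was not tested.

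Among 12 tested genes of lipase handling and lipoprotein uptake, 2 rose and 1 fell in males. These were Furin, a protease that can cleave LPL (log2FC 0.57), Lmf2, a relative of the lipase maturation factor (0.44), and the VLDL receptor gene Vldlr (-0.82). In females the fatty acid transporter gene Cd36 rose (log2FC 1.39). Of 19 PPAR target genes of muscle, a list that holds some of the 10 genes, edgeR called 2 in females, Angptl4 and the lipid droplet gene Plin2 (log2FC 1.55). In males edgeR called 0 of the 19, with 2 at an unadjusted p under 0.05, while DESeq2 called 2 and limma-voom 1. The counts of both lists stand beside 26.3% of all genes called by edgeR in males and 13.4% in females. Plin2 ran from 44.0 to 188 CPM and Cd36 from 582 to 1301 CPM in treated females, the group in which the adipocyte markers had a median log2FC of 2.25 over vehicle, and the part of adipocytes in both values was not tested.

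Ucp3, the muscle carrier, was not called. It ran from 227 to 387 CPM in vehicle-treated males and from 133 to 271 CPM in treated males, a log2FC of -0.39 ± 0.19 (SE, adjusted p 0.115 in edgeR's test). In females it ran from 159 to 384 CPM with vehicle and from 164 to 274 CPM with corticosterone, a log2FC of -0.22 ± 0.20 (SE, adjusted p 0.447 in edgeR's test). The groups overlapped in both sexes. Of 5 other tested carriers, 1 rose in females, the adenine nucleotide translocase gene Slc25a5 (log2FC 0.98), and edgeR, DESeq2 and limma-voom called 0 in males, with 0 at an unadjusted p under 0.05 in edgeR's test. Over all genes, edgeR called 13.4% in females and 26.3% in males.

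Txnip was the only one of the 10 genes called in both sexes. In males it ran from 926 to 1092 CPM with vehicle (median 1022) and from 1321 to 1511 CPM with corticosterone (median 1411). All treated males lay above all vehicle-treated males, as 10.8% of all genes tested did. The log2FC was 0.48 ± 0.11 (SE, adjusted p 0.0012 in edgeR's test), and Txnip was called in each of the 23 fits that left out 1 mouse.

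In females, Txnip ran from 742 to 1240 CPM with vehicle (median 921), and the treated females held 1713 (F2), 1562 (F4), 1405 (F6), 1458 (F8) and 1214 CPM (F10). Only F9, with vehicle at 1240 CPM, reached the treated range, and it passed F10 alone. Txnip rose by a log2FC of 0.59 ± 0.11 (SE, adjusted p 0.000652 in edgeR's test). The difference between the sexes was -0.12, with a 95% interval of -0.43 to 0.20.

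Among 13 tested genes of the thioredoxin system, the alpha-arrestins to which TXNIP belongs, and its regulator MondoA, 2 rose and 1 fell in males and 1 rose in females. Arrdc2 (log2FC 3.14) and Arrdc3 (2.43), both alpha-arrestin genes, rose in males, and Arrdc1 fell (-0.82). Arrdc3 also rose in females (1.51). The shares of all genes called were 26.3% in males and 13.4% in females.

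The interaction of sex and treatment was called for 0 of the 10 genes by edgeR, beside 0.690% of all genes tested, with 5 genes at an unadjusted p under 0.05. DESeq2 called 2 (Pdk3 and Angptl4) and limma-voom 1 (Angptl4). The male minus female difference of log2FC was -1.98 ± 0.48 (SE, adjusted p 0.0176 in edgeR's test) for Angptl4, -1.71 ± 0.44 (SE, adjusted p 0.0206 in edgeR's test) for Pdk3 and -1.74 ± 0.53 (SE, adjusted p 0.0375 in edgeR's test) for Lpl.

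Between vehicle-treated males and females edgeR called 0 of the 10 genes, beside 0.958% of all genes, with 1 gene at an unadjusted p under 0.05 (Pdk3), and DESeq2 and limma-voom called 0. Between the corticosterone groups 3 of the 10 were called, beside 23.3% of all genes (9.31% higher and 14% lower in males), with Pdk2 higher and Angptl4 and Lpl lower in males. No gene of the 10 separated the corticosterone groups without overlap, as 6.87% of genes did upward and 5.55% downward in males. These comparisons share mice with those of treatment within a sex.

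Of 16 listed regulators of Pdk4 transcription, 7 rose and 2 fell in males, and 3 rose and 2 fell in females. Over all genes, 13.2% rose and 13.1% fell in males, and 7.40% rose and 6.0% fell in females. In both sexes the FoxO factor genes Foxo1 (log2FC 2.66 in males and 1.70 in females) and Foxo3 (1.54 and 0.52) rose, as did Cebpb (1.16 and 0.77). In males Klf15 (1.18), Foxo4 (0.56), Rxra (0.56) and Ppard (0.36) also rose, whereas Esrra (-0.65) and the coactivator gene Ppargc1b (-0.95) fell. In females Nr4a1 (-1.61) and the glucocorticoid receptor gene Nr3c1 (-0.54) fell. The interaction was called for Foxo3 (1.02) and Nr4a1 (1.39), each with an adjusted p of 0.00607 in edgeR's test. Between the corticosterone groups Foxo4 (0.52) and Nr4a1 (1.01) were higher and Pparg (-2.20) lower in males. Pparg, which adipocytes also express, had a median of 34.9 CPM in treated females and 6.35 CPM in treated males, and the 8 adipocyte markers had a median log2FC of -2.80 in this comparison. Their part in the Pparg value was not tested.

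Within groups, mice with more Pdk4 tended to have more Ucp3. With group means removed, the log2 CPM values of Pdk4 and Ucp3 over 23 mice had a Pearson r of 0.726 (adjusted p 0.00351) and a Spearman rho of 0.658 (adjusted p 0.0159), by permutation within groups and adjusted over 9 relations. Pearson's r was 0.451 for Pdk1 (adjusted p 0.0282 by permutation) and 0.412 for Pdk2 (0.0208), with rho of 0.473 (0.111) and 0.479 (0.0531). Without F11 and F1, the mice farthest from the Pdk4 median, r was 0.549 for Ucp3, 0.632 for Pdk1 and 0.353 for Pdk2. Only 1 of the 3 relations still passed 0.05. Leaving out the mice farthest out in Pdk4 narrows its range, so that a smaller r can follow from the choice of mice. The other 6 relations did not pass, including that to Txnip with r of 0.376 (adjusted p 0.299 by permutation) and rho of 0.187 (0.574). Slow fiber markers were high in vehicle-treated F3, F5, M3 and M5, at 3516 to 5793 summed CPM. They were also raised in treated F2, F8, F10, M6 and M10, at 1294 to 3171, beside at most 287 in every other mouse. The part of slow fibers in these relations was not tested.

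**Figure D5:**
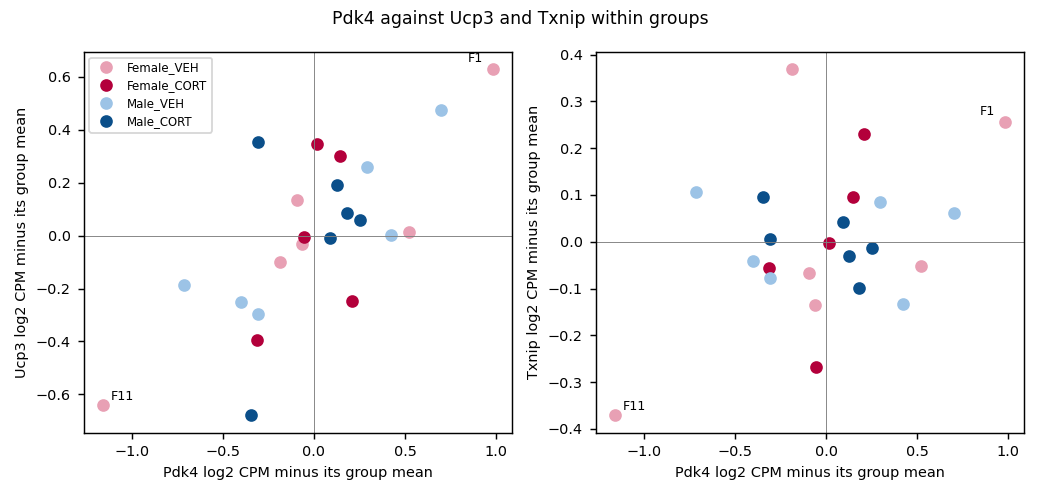
Log2 CPM minus its group mean for Pdk4 (horizontal axes) against Ucp3 (left) and Txnip (right) in the 23 mice, colored by group. F1 and F11 are the mice farthest out; Pearson's r with Ucp3 was 0.726 with them and 0.549 without them, and with Txnip 0.376 and -0.0799.

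The genes most like Pdk4 over the 23 mice, ranked by Pearson's r of log2 CPM among 13048 genes, were 6430548M08Rik (0.897), Gm11967 (0.871) and Maff (0.871). Those most like Txnip were Fkbp5 (0.894), Ell2 (0.889) and Depp1 (0.889). All 4 groups enter these values, so that the shift between treated and vehicle-treated mice is part of them. Each of the 6 genes rose in both sexes, Fkbp5, a classic glucocorticoid receptor target, by a log2FC of 3.36 in males and 3.05 in females.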

How the data were processed

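The authors aligned read pairs with STAR 2.7.3a to mm10 and counted them per gene and strand with HTSeq 0.12.4, and they deposited raw counts without normalization. Each mouse had 20904150 to 21984477 counts on genes. Summary entries that name no gene held 10.7% to 15.3% of read pairs and were left out. A gene was tested if more than 20 normalized counts were found in 4 or more mice of any group, in R 4.3.3 with edgeR 4.0.16 (TMM, quasi-likelihood test, 1 model with 4 group means, Benjamini-Hochberg adjustment over 13049 genes, threshold 0.01). DESeq2 1.42.0 and limma 3.58.1 (voom with sample quality weights) served as alternatives. TPM used GENCODE M21 exon lengths. In simulated counts of 13049 genes, 100 genes per sex were changed by 1 and 100 by 2 on the log2 scale. Changes of 1 were recovered for 73% of genes in the male and 65% in the female comparison. In the real data 26.3% of genes were called in males and 13.4% in females, so these rates need not hold there.

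The 10 genes, the pathway and marker lists and the tests were chosen with earlier results of these data known. The genes named are the 10, the called genes with the largest log2FC of each pathway list (at most 2 higher and 2 lower per sex), the called regulators of Pdk4, marker lists, and the 3 genes most like Pdk4 and Txnip. Leaving out F2, F6 and F10 was chosen after seeing the data. A gene of the pathway lists that this rule names is not reported here. Muscle weights and strength were not analysed here.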

Additional observations from a re-analysis of the deposited data

Results flagged for a closer look

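In vehicle-treated males, M1 stood apart for Pdk3 at 3.22 CPM, the next mouse being at 1.75 CPM, and M3 for Angptl4 at 35.9 CPM, the next being at 24.1 CPM. In vehicle-treated females, F11 stood apart for Pdp1 at 105 CPM, the next being at 68.2 CPM. These 3 values passed Dixon's 95% limit for 1 sample far from the rest of its group, which chance passes in about 1 of 20 groups, and 40 groups were examined.

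Pdk3 had log2FC values of opposite sign in the sexes, with a male minus female log2FC of -1.71. All 6 treated males lay below and all 5 treated females above the vehicle mean of their sex. The interaction test gave an adjusted p of 0.0206 with edgeR, and Pdk3 had at most 69 counts in a mouse.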

How the results depend on the processing

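The 1 gene called in males became 3 with DESeq2 (Pdk3, Pdk4 and Txnip), 2 with limma-voom, 2 with each sex fitted alone (Pdp1 and Txnip) and 0 with an added log2FC limit of 1. The 3 called in females became 1 with each sex fitted alone, 1 with the log2FC limit (Angptl4 in both) and 0 without F2, F6 and F10. The interaction went from 0 to 2 with DESeq2 and 1 with limma-voom. Between the corticosterone groups, 3 became 5 with limma-voom, 5 with library size alone and 0 without F2, F6 and F10. Of the 3 relations of Pdk4, 1 remained without F11 and F1 and 1 with library size alone. The causes were not tested, and the fits that left some mice out also had fewer mice.

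Leaving out each mouse in turn gave 1 to 3 genes in males, 2 to 3 in females, 0 to 2 for the interaction, 0 to 0 between vehicle groups and 2 to 4 between corticosterone groups. Without F11 the male count was 3, without M5, M9 or M11 it was 2, and without F8 the interaction count was 2.

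Some values changed sign, none of them called before or after. For Pdk1 between vehicle groups they were 0.0026 (DESeq2) and 0.0039 (no filter). For Ucp3 between corticosterone groups they were 0.0205 (DESeq2), 0.14 (limma-voom), 0.0028 (median of ratios), 0.0293 (no filter) and 0.10 (without F10 and M8), and for Pdk4 -0.0734 (library size). For the interaction of Pdp1 they were -0.0873 (library size) and -0.17 (without F2, F6 and F10), which also gave 0.0026 for the interaction of Ucp2, 0.0199 for Pdk2 and 0.0645 for Ucp3 in females. The r of Pdk4 without F11 and F1 was 0.0975 with Pdk3, 0.178 with Pdp1 and -0.0799 with Txnip. Leaving out 1 mouse gave ranges that crossed 0 for Pdk1 in females (-0.16 to 0.0110), Pdk1 (-0.16 to 0.0729), Txnip (-0.0110 to 0.14) and Ucp2 (-0.20 to 0.0386) between vehicle groups, Pdk4 (-0.40 to 0.0132) and Pdp1 (-0.15 to 0.12) for the interaction, and Txnip (-0.0902 to 0.0024) and Ucp3 (-0.0975 to 0.0900) between corticosterone groups.

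Male and female mice share numbers, and 7 of 11 same-numbered pairs had a correlation over 0.1 (range -0.377 to 0.477). Vehicle-treated pairs ran from 0.0846 to 0.477 and treated pairs from -0.377 to 0.242. The labels do not say what a shared number means, so the numbers were not taken to pair the mice. Whether same-numbered mice share a batch was not tested. With a replicate block the interaction count was 1 (Lpl, log2FC -1.64), and Pdp1 was at -0.0420.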

Other observations

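Erythrocyte genes rose with corticosterone in both sexes. Of 5 listed genes, 4 were called higher in males and 4 in females by edgeR's quasi-likelihood test, beside 13.2% and 7.40% of all genes. Hbb-bt, a beta globin gene, had a log2FC of 1.61 in males and 1.58 in females, and Alas2, the first enzyme of heme synthesis in red cells, had 1.22 and 1.40. The globin genes are near-identical copies, so their separate values are uncertain.

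Some genes related to the 10 differed between the sexes in vehicle-treated mice. The VLDL receptor gene Vldlr (log2FC 1.13) and the mitochondrial carrier gene Slc25a30 (1.16) were higher in males, and Foxo3 (-0.58) was lower.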
